A study of Mus musculus with 12 samples.

Results

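Integrins and laminins, a family of matrix receptors and a family of the matrix proteins they bind, were followed through RNA from mouse oligodendrocyte progenitor cells (OPCs) given a miR-27a or a control mimic. The genes were taken by symbol, namely the numbered integrin alpha subunits, alpha V, the numbered beta subunits and the laminin alpha, beta and gamma chains. Membership follows the symbol alone. It gave 32 of the 20540 genes in the deposited table: 13 integrin alpha subunits, 8 integrin beta subunits and 11 laminin chains. Of these, 27 had a mean of at least 1 CPM (counts per 1000000 assigned reads, after the authors' scaling between libraries) in a group. The other 5, Itga10, Itga11, Itgb2, Itgb6 and Lamb3, stayed below 1 CPM in all 4 groups and are treated as not measured.

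An integrin is a pair of membrane proteins, an alpha and a beta subunit, that holds a cell to the matrix or to another cell and signals inwards through adaptor proteins on its tails. The pairing sets the ligand. Beta 1 partners most alpha subunits, alpha V partners several beta subunits, and the alpha 3, alpha 6 and alpha 7 subunits with beta 1 are receptors for laminin. A laminin is a cross-shaped secreted protein of an alpha, a beta and a gamma chain, and a core part of basement membranes. In the oligodendrocyte lineage, laminin and the alpha 6 beta 1 receptor are known for roles in survival and in the ensheathing of axons, while alpha V receptors are known from progenitor migration and proliferation.

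The C57BL/6 mice that gave the OPCs were 6 to 7 days old and the tissue was brain; the cells were kept in a medium for proliferation. All 4 groups carried a mimic, a short synthetic RNA duplex built to act as a mature microRNA, and in all 4 the mimic had a biotin tag for capture on streptavidin. The groups were RNA from the pulldown under miR-27a mimic, RNA from the pulldown under control mimic, whole-cell RNA under miR-27a mimic and whole-cell RNA under control mimic, with 3 libraries each. An untransfected culture was not analysed here, and the labels do not say whether the libraries of a group came from separate cultures, so the p-values measure only the spread between these libraries, which may be technical. In such bulk RNA, fewer cells of a type and less RNA per cell cannot be told apart.

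Libraries held between 15548418 and 24972188 assigned reads, and 3 reads corresponded to between 0.116 and 0.200 CPM, a limit that covers counting error only. Pulldown miR-27a replicate 2 stood apart from the other libraries on the third principal component (5.4% of the variance), so pulldown results are also given without it. The 10 OPC markers were each at 1 CPM or more in every group, and they summed to 4736 to 4869 and 4053 to 4132 CPM in pulldown RNA under miR-27a and control mimic, and to 2592 to 2601 and 2492 to 2548 CPM in whole-cell RNA. The cultures also held RNA of other cell types. Astrocyte markers summed to 3634 to 4013, 5122 to 5289, 6408 to 6441 and 7793 to 7810 CPM in the same order of groups, and oligodendrocyte markers to 3733 to 4766, 5088 to 5687, 10568 to 10953 and 11100 to 11596 CPM.

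The mature microRNA that the mimic stands for is shown with its seed, bases 2 to 8, in capitals (RefSeq, GRCm38.p6, chromosome 8, 84208727 to 84208747, plus strand). Below it are the 3′ UTR sites of 6 measured integrin and laminin genes that match the seed, since a match there is how a microRNA finds an mRNA; capitals mark the match, and the strand is that of the mRNA.
miR-27a-3p: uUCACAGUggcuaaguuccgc
Itga1, 8mer, chr13:114953688-114953695, minus strand: tgctgtgtgttactACTGTGAAgc
Itga2, 8mer, chr13:114833779-114833786, minus strand: aacttgcctctttaACTGTGAAga
Itga4, 8mer, chr2:79328847-79328854, plus strand: tatgttactatctcACTGTGAAgt
Itga5, 8mer, chr15:103345082-103345089, minus strand: ccttccccccatgcACTGTGAAgg
Itgb8, 7mer, chr12:119161282-119161288, minus strand: ggcattgtcaaaatACTGTGAct
Itgb8, 7mer, chr12:119161520-119161526, minus strand: agcaagtgtcttacCTGTGAAaa
Lamc1, 7mer, chr1:153220198-153220204, minus strand: ctccttaagaccacACTGTGAca
Coordinates are on GRCm38. The search covered the longest 3′ UTR of a coding transcript of each gene (GENCODE M21) for the 8mer ACTGTGAA and the 7mers ACTGTGA and CTGTGAA, each contained in the 8mer, on the mRNA strand. An 8mer or 7mer was found in 8 of the 32 genes (25%) and in 4697 of 17003 genes with a 3′ UTR (27.62%). The 8mer was found in 4 of the 32 (12.5%) and in 1036 of the 17003 (6.093%). Itga1 and Itga4 each had a further 7mer, and Itga10 and Itga11, which were below 1 CPM, had a 7mer each. Searching every annotated 3′ UTR of a gene added Itga9, Itgb1 and Itgb2, and gave 11 of the 32 (34.38%) against 5545 of the 17003 (32.61%), and for the 8mer 5 (15.62%) against 1279 (7.522%). A match of letters describes the sequence and is not by itself a site of binding.

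Levels per length of annotated exon set the family members side by side. In whole-cell RNA under control mimic, Itgb1, the shared beta 1 partner, stood far above the rest at 245 ± 4.2 CPM per kilobase (SD, n = 3), followed by Itgav at 53.9 ± 1.3 and Itga6 at 19.7 ± 0.087. Itga7, Itgb5 and Itgb8 came next among the integrins, at 14.9 ± 0.17, 13.5 ± 0.74 and 6.84 ± 0.27 CPM per kilobase. Among laminin chains, the beta 2 chain Lamb2 was highest at 15.5 ± 0.79, then the gamma 1 chain Lamc1 at 8.10 ± 0.14 and the alpha 4 chain Lama4 at 2.80 ± 0.20 CPM per kilobase. Each of the 3 chain types of a laminin was represented, and the alpha chains all lay below Lamb2 and Lamc1. By merged exons, Lama4 at 2.80 ± 0.20 lay within its SD of Itga8 at 2.76 ± 0.027 and Itga1 at 2.61 ± 0.12 CPM per kilobase. By longest transcript the levels of Lama4, Itga8 and Itga1 were 5.59, 3.50 and 4.43. The choice of length moved others by over 1.5 times: by longest transcript Itgav had 82.1, Itga6 41.3, Itga7 30.0 and Lamb1 1.92 CPM per kilobase, against 53.9 ± 1.3, 19.7 ± 0.087, 14.9 ± 0.17 and 1.12 ± 0.11 by merged exons. Itgb1, Itgav and Itga6 led in that order by both lengths. In pulldown RNA under miR-27a the leading genes were again Itgb1, Itgav and Itga6, at 267 ± 16.8, 59.0 ± 3.6 and 28.9 ± 1.1 CPM per kilobase.

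**Figure D1:**
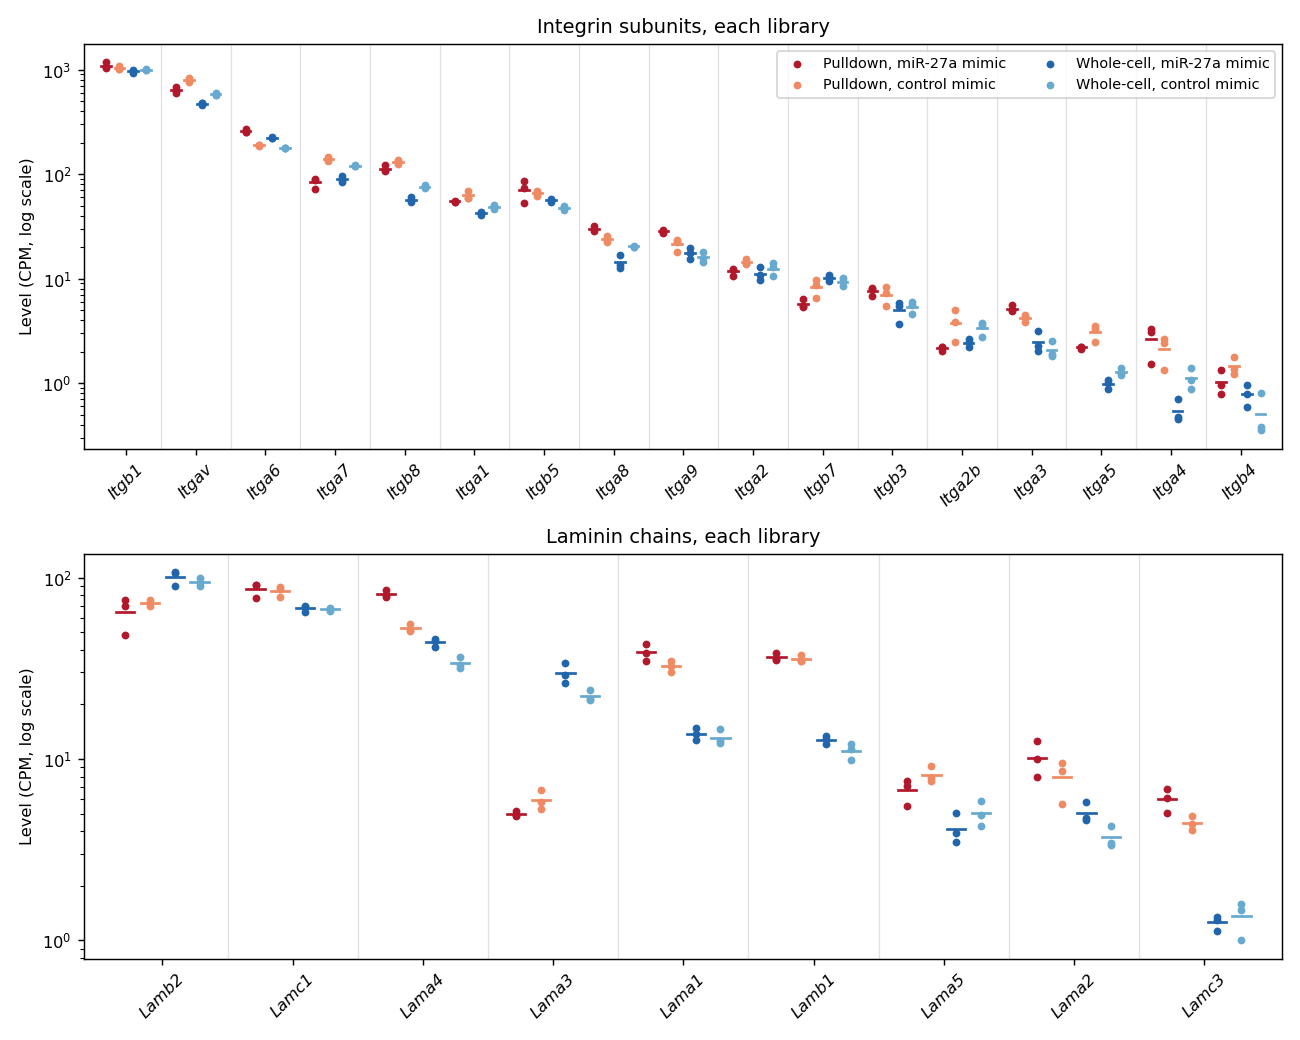
Level of 26 measured integrin and laminin genes in each library, in CPM on a log scale, ordered by their mean in whole-cell RNA under control mimic. Points are libraries and bars are group means (n = 3); Lama3 lies lower in both pulldown groups than in both whole-cell groups, while Lama1 and Lamb1 lie higher there.

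The comparison of mimics in whole-cell RNA asked which of these genes differed in the cells themselves under miR-27a. The laminin alpha chains Lama2, Lama3 and Lama4 and the integrin subunits Itga6 and Itgb5 were higher, while Itga7, Itga8, Itgav, Itga1 and Itgb8 were lower, with log2 changes between -0.49 and 0.40. Of 25 members tested, 5 were higher and 5 lower in miR-27a cells at an adjusted p under 0.05, beside 24.9% of all 13393 genes tested (13% higher and 11.9% lower). The median log2 change of the members was -0.05, against 0.01 over all genes. Changes are on the scale of log2(CPM + 1), which understates those of low genes. Of 10 alpha subunits tested 1 was higher and 4 were lower, of 5 beta subunits 1 was higher and 1 lower, and of 10 laminin chains 3 were higher and none lower.

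Itga6 had 219, 226 and 220.0 CPM in whole-cell RNA under miR-27a, against 178, 178 and 177 CPM under control mimic. All miR-27a libraries lay above all control libraries, and the log2 change was 0.32 ± 0.03 (SE, adjusted p = 3.79e-07); the gene lies on chromosome 2, 71745616 to 71858416 (GRCm38). Its usual partner Itgb1 had 958, 994 and 932 CPM, against 1017, 983 and 997 CPM. Those groups overlapped, and the change of -0.06 ± 0.03 (adjusted p = 0.218) did not pass the test. A further laminin receptor subunit, Itga7, went the other way, with 88.1, 84.1 and 94.9 CPM under miR-27a, against 122, 121 and 119 CPM under control mimic. It fell by 0.43 ± 0.05 (SE, adjusted p = 1.54e-07) on the log2 scale with no overlap of the groups (chromosome 10, 128933818 to 128958282).

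The fibronectin and vitronectin receptor subunit Itgav had 481, 459.5 and 478 CPM under miR-27a and 574, 569 and 595 CPM under control mimic, a log2 change of -0.29 ± 0.03 (adjusted p = 4.67e-07). Of its beta partners, Itgb8, which with alpha V activates latent TGF-beta, had 60.5, 56.2 and 54.4 CPM, against 78.9, 75.0 and 73.1 CPM, a change of -0.40 ± 0.05 (adjusted p = 2.50e-06). Itgb5, which with alpha V binds vitronectin, had 54.4, 56.2 and 58.4 CPM, against 44.9, 49.8 and 48.9 CPM, a change of 0.23 ± 0.05 (adjusted p = 0.00251). Alpha V and beta 8 mRNA were lower and beta 5 mRNA higher, each with all 3 miR-27a libraries on one side of all 3 control libraries. Itgb3, the remaining alpha V partner above 1 CPM besides Itgb1, overlapped between the groups at 5.01 ± 1.2 and 5.37 ± 0.72 CPM (SD, n = 3 each). Itgb5 did not pass when all 12 libraries were fitted together (adjusted p = 0.231).

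Itga8 and Itga1 were lower under miR-27a as well. Itga8, a receptor subunit for nephronectin and other ligands with the RGD motif, had 13.5, 16.8 and 12.8 CPM, against 20.2, 20.6 and 20.3 CPM, a log2 change of -0.49 ± 0.09 (adjusted p = 0.000252). Itga1, a collagen and laminin receptor subunit, had 42.7, 43.4 and 40.7 CPM, against 50.5, 46.2 and 49.1 CPM, a change of -0.20 ± 0.05 (adjusted p = 0.0105). Neither gene's groups overlapped. Itga1 no longer passed when whole-cell miR-27a replicate 3 was left out or all 12 libraries were fitted, where the adjusted p reached 0.0937. Markers of other cells moved between the mimics too. Of 8 astrocyte markers 6 were lower in whole-cell RNA and 0 higher, with sums of 6408 to 6441 CPM under miR-27a and 7793 to 7810 CPM under control mimic. Of 6 oligodendrocyte markers 3 were lower and 0 higher, and of 7 tested mural and fibroblast markers Acta2 and Pdgfrb were lower and Col3a1 higher. Acta2, a smooth muscle actin, had 15.5 ± 1.4 CPM under miR-27a and 46.0 ± 5.1 CPM under control mimic (SD, n = 3 each). Of 10 OPC markers 5 were higher and 1, Pdgfra, was lower. These counts stand beside 24.9% of all genes called in whole-cell RNA (13% higher and 11.9% lower). The part of these markers in the changes of Itgav, Itga7, Itga8, Itgb8 and Itga1 was not tested.

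The laminins that passed with the main settings were all alpha chains, the chains that carry the main receptor-binding domains. Lama4, an alpha chain known from vessels and nerves, had 44.9, 46.0 and 41.4 CPM under miR-27a, against 31.9, 36.5 and 33.0 CPM under control mimic, a log2 change of 0.37 ± 0.06 (SE, adjusted p = 9.07e-05) on chromosome 10, 38965515 to 39110188. Lama3, an alpha chain best known from epithelia, had 26.2, 33.7 and 29.1 CPM, against 21.5, 21.1 and 24.0 CPM, a change of 0.40 ± 0.08 (adjusted p = 0.000731). In both genes each miR-27a library lay above each control library. Lama2, the alpha chain whose loss causes a muscular dystrophy with white matter changes, had 5.82, 4.62 and 4.73 CPM, against 3.44, 3.37 and 4.27 CPM. Its change of 0.37 ± 0.13 (adjusted p = 0.0373) was lost in 6 of 14 alternatives (adjusted p 0.0246 to 0.202 over all 14). The alpha chains Lama1 and Lama5 did not pass, at 0.06 ± 0.09 (adjusted p = 0.673) and -0.23 ± 0.13 (adjusted p = 0.221). Among the beta and gamma chains, Lamb1, Lamb2, Lamc1 and Lamc3 did not pass, with log2 changes of 0.19, 0.10, 0.01 and -0.05. Lamb2 was called higher when whole-cell miR-27a replicate 2 was left out (adjusted p = 0.0157). Summed endothelial markers were 9.06 to 10.9 CPM under miR-27a and 7.27 to 7.54 CPM under control mimic, with 1 of the 7 markers at 1 CPM or more, and their part in the Lama4 difference was not tested.

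In pulldown RNA, the mimics were compared to ask which transcripts were recovered differently when the tagged RNA was miR-27a. Lama4, Itga6, Itga9 and Itga8 were higher under miR-27a, and Itga7 and Itgav were lower. Of 27 members tested, 4 were higher and 2 lower, beside 13.1% of all 13586 genes tested (6.05% higher and 7.06% lower), and the median log2 change of the members was 0.03, against -0.00 over all genes. Same-numbered pulldown libraries deviated together weakly (r = 0.107 to 0.275), and with the replicate number as a block 5 members were higher and 5 lower. That fit called 2743 of all 13586 genes, against 1781 without the block. Without pulldown miR-27a replicate 2 there were 8 members higher and 4 lower, beside 2691 of 13486 genes called. Without miR-27a replicate 3, control replicate 1 or control replicate 3 the members called numbered 3 each, beside 1029, 1002 and 969 genes.

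Lama4 had 85.3, 78.4 and 80.6 CPM in pulldown RNA under miR-27a, against 50.6, 55.4 and 51.3 CPM under control mimic, a log2 change of 0.62 ± 0.09 (SE, adjusted p = 0.000172). Itga6 had 272, 255 and 255 CPM, against 186, 189.8 and 189 CPM, a change of 0.46 ± 0.08 (adjusted p = 0.000836). Itga7 had 87.3, 72.7 and 89.4 CPM, against 136, 132 and 147 CPM, a change of -0.73 ± 0.09 (adjusted p = 9.67e-05). For these 3 genes no library of one mimic overlapped those of the other, and the call held under every alternative that was run. Leaving out the library that stood apart gave -0.64 ± 0.08 (adjusted p = 2.39e-09) for Itga7.

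The other pulldown calls were closer to the threshold. Itgav had 675, 629 and 599 CPM under miR-27a and 789, 830.0 and 767 CPM under control mimic, a log2 change of -0.33 ± 0.08 (adjusted p = 0.0167). Itga8 had 29.8, 28.7 and 31.7 CPM, against 25.6, 23.3 and 22.3 CPM, a change of 0.33 ± 0.10 (adjusted p = 0.0388), and neither gene's groups overlapped. Itga9, a receptor subunit for tenascin C and osteopontin, had 29.3, 27.6 and 28.0 CPM, against 18.0, 23.6 and 22.4 CPM, a change of 0.40 ± 0.11 (adjusted p = 0.0267), again with no overlap. These 3 calls each ended with no filter on low values and without miR-27a replicate 3, control replicate 1 or control replicate 3, and those of Itgav and Itga8 also without control replicate 2. Over all alternatives the adjusted p was 0.000460 to 0.112 for Itgav, 0.00962 to 0.171 for Itga8 and 0.00491 to 0.153 for Itga9.

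With the replicate block, Itgb8, Itgb7, Itga2b and Lama1 also passed. Itgb8 had 106, 122 and 109.9 CPM under miR-27a, against 125, 135 and 132 CPM, a log2 change of -0.22 ± 0.08 (adjusted p = 0.109) without the block and -0.22 ± 0.06 (adjusted p = 0.0264) with it. Itgb7, a subunit of lymphocyte receptors, had 5.53, 5.32 and 6.38 CPM, against 8.63, 6.56 and 9.78 CPM, with -0.46 ± 0.15 (adjusted p = 0.0608) without the block and -0.46 ± 0.13 (adjusted p = 0.0260) with it. Every miR-27a library was below every control library in both genes. Itga2b, which with beta 3 forms the platelet fibrinogen receptor, had means of 2.17 ± 0.10 and 3.79 ± 1.3 CPM (SD, n = 3 each), with -0.56 ± 0.19 (adjusted p = 0.0472) under the block. Lama1, an alpha chain of early embryonic basement membranes, had 43.1, 34.7 and 38.4 CPM, against 34.8, 30.2 and 32.7 CPM, with overlapping groups and 0.24 ± 0.08 (adjusted p = 0.0461) under the block.

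Several genes moved with the library that stood apart. In pulldown RNA under miR-27a Itgb5 had 85.4, 53.3 and 73.6 CPM, replicate 2 being the lowest, against 69.1, 62.1 and 66.1 CPM under control mimic. Its log2 change was 0.08 ± 0.13 (adjusted p = 0.750) with all libraries and 0.27 ± 0.08 (adjusted p = 0.0173) without that replicate. Replicate 2 was also the lowest for Lamb2, with 74.8, 48.5 and 69.5 CPM under miR-27a against 72.9, 70.0 and 75.4 CPM under control mimic. Lama2 and Lamc3 passed without that replicate as well, at 0.48 ± 0.16 (adjusted p = 0.0264) and 0.46 ± 0.17 (adjusted p = 0.0491).

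**Figure D2:**
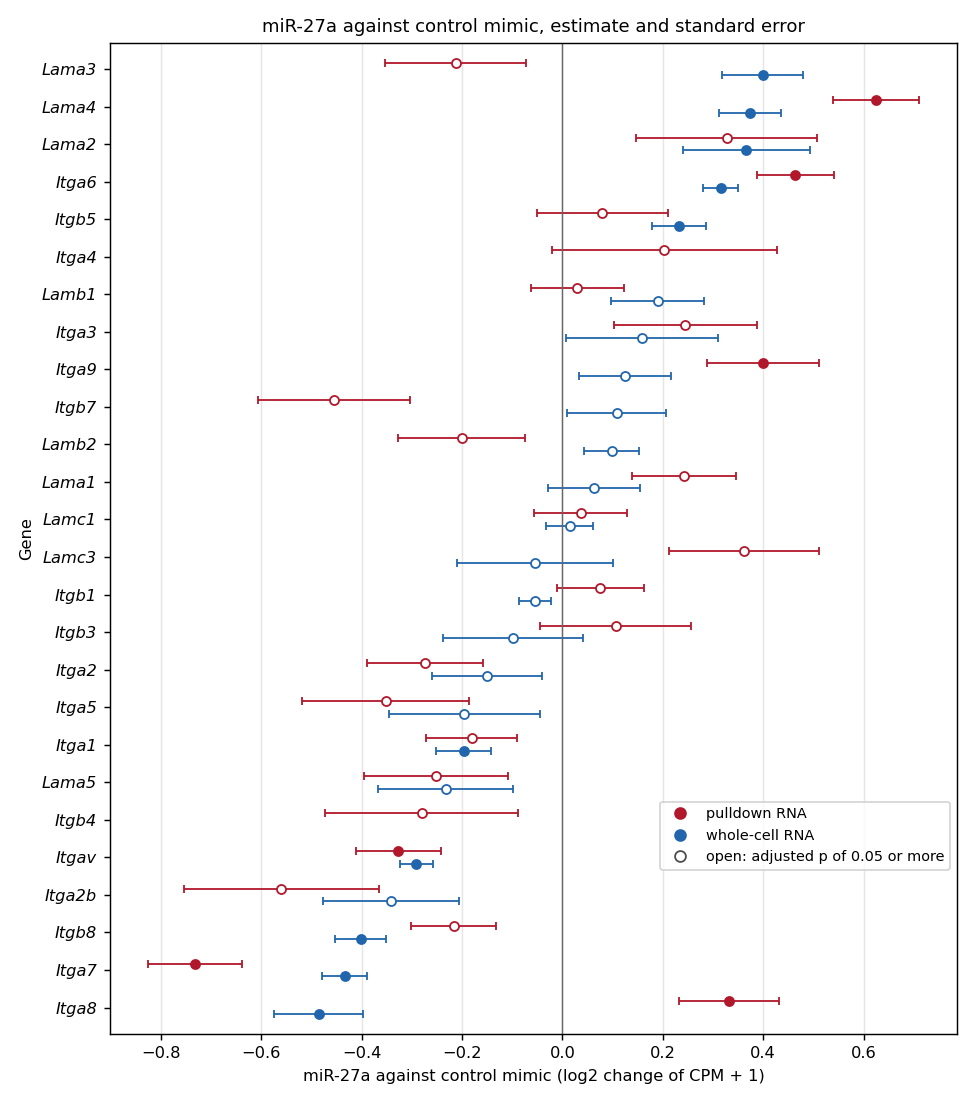
Log2 change of CPM + 1 under miR-27a against control mimic for 26 measured genes, in pulldown RNA (red) and whole-cell RNA (blue). Points are estimates from 3 against 3 libraries, bars are standard errors and open points did not pass an adjusted p of 0.05; Lama4 and Itga6 lie right of 0 and Itga7 and Itgav left of 0 in both kinds of RNA, and Itga8 lies on opposite sides.

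The change under miR-27a differed between pulldown and whole-cell RNA for 1 member, Itga8, beside 1.07% of 13875 genes in that test (0.339% higher and 0.735% lower in pulldown). Itga8 was higher under miR-27a in the pulldown libraries and lower in the whole-cell libraries, as given above. The difference of the changes was 0.82 ± 0.13 (SE, adjusted p = 0.00417) on the log2 scale, and it passed under all 19 alternatives, with estimates of 0.74 to 0.93 and adjusted p of 0.000390 to 0.0235. Put as pulldown against whole-cell RNA, Itga8 was higher in pulldown RNA by 1.03 ± 0.09 (adjusted p = 4.39e-08) under miR-27a and by 0.21 ± 0.09 (adjusted p = 0.0633) under control mimic, of which only the contrast under miR-27a passed with all libraries and the main settings (the other passed in 4 of 20 alternatives). Its longest 3′ UTR of 2483 bases held no 8mer or 7mer match to the seed. The gene (chromosome 2, 12106632 to 12301922, minus strand) shares 372 exonic bases with the antisense gene E030013I19Rik, which held 1 and 0 reads in pulldown RNA under miR-27a and control mimic, and 4 and 7 reads in whole-cell RNA, summed over each group. The next largest differences, those of Lama3 at -0.61 ± 0.15 (adjusted p = 0.0622) and Itgb7 at -0.56 ± 0.18 (adjusted p = 0.156), did not pass with all libraries; Lama3 passed without pulldown miR-27a replicate 1 or 2, and Itgb7 without pulldown control replicate 2.

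**Figure D3:**
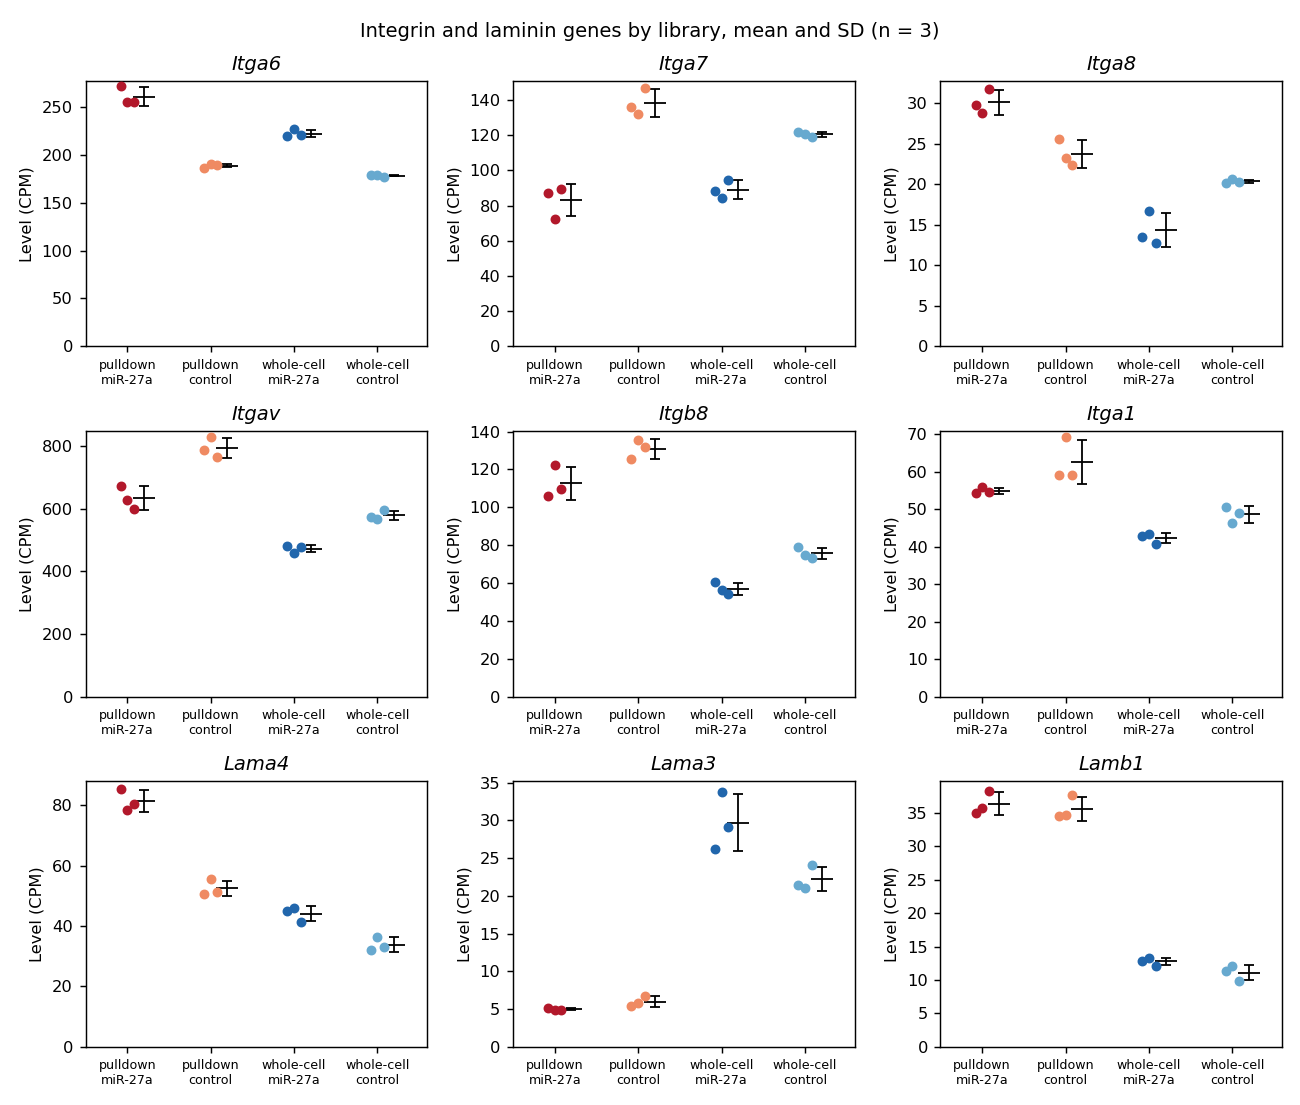
CPM of 9 integrin and laminin genes in each library, with group mean and SD (n = 3), on axes that start at 0. Under miR-27a, Itga8 is above its control level in pulldown libraries and below it in whole-cell libraries, and Lama3 is at 4.88 to 6.76 CPM in pulldown against 21.1 to 33.7 CPM in whole-cell libraries.

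The comparison of pulldown with whole-cell RNA asked which transcripts the capture enriched under each mimic. Laminin chains such as Lamb1, Lama1 and Lamc3 and integrin subunits such as Itgb8 and Itgav were higher in pulldown RNA under both, and Lama3 and Lamb2 were lower under both. Under miR-27a 19 of 27 members were higher in pulldown RNA and 3 lower, beside 60.2% of all genes called (29.3% higher and 30.9% lower). Under control mimic 17 were higher and 2 lower, beside 62% (31.7% higher and 30.3% lower). The members' median log2 difference was 0.42 under miR-27a and 0.39 under control mimic, against -0.01 and 0.02 over all genes. With library totals in place of the authors' scaling, 19 and 3 members were called under miR-27a and 22 and 2 under control mimic. Over 13880 genes that scaling gave 5009 higher and 3312 lower under miR-27a, and 5176 and 3401 under control mimic. Fits of all 12 libraries gave these values, so the spread is pooled over the 4 groups.

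The laminin chains included the members with the largest differences. The beta 1 chain Lamb1 had 35.1, 35.8 and 38.3 CPM in pulldown and 12.8, 13.3 and 12.2 CPM in whole-cell RNA under miR-27a, and 34.6, 34.6 and 37.7 CPM in pulldown and 11.3, 12.1 and 9.88 CPM in whole-cell RNA under control mimic. The log2 differences were 1.44 ± 0.09 (SE, adjusted p = 1.96e-10) and 1.60 ± 0.09 (adjusted p = 7.42e-11) (chromosome 12, 31265234 to 31329644). All pulldown libraries lay above all whole-cell libraries. Lama1 behaved alike, with 43.1, 34.7 and 38.4 against 12.7, 14.9 and 13.7 CPM under miR-27a and 34.8, 30.2 and 32.7 against 14.6, 12.6 and 12.2 CPM under control mimic, at 1.43 ± 0.10 and 1.25 ± 0.10. Lama4, whose levels are given above, was higher in pulldown RNA by 0.87 ± 0.07 (adjusted p = 1.12e-08) under miR-27a and 0.62 ± 0.07 (adjusted p = 7.06e-07) under control mimic. In all 3 chains the pulldown and whole-cell libraries did not overlap under either mimic.

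Laminin chains at lower levels were on the same side. Lamc3, the gamma 3 chain, had 6.06, 5.05 and 6.84 CPM in pulldown against 1.35, 1.30 and 1.13 CPM in whole-cell RNA under miR-27a, and 4.85, 4.36 and 4.04 against 1.59, 1.48 and 1.00 CPM under control mimic. Lama2 had 12.6, 7.96 and 9.96 against 5.82, 4.62 and 4.73 CPM under miR-27a, and 8.63, 5.67 and 9.56 against 3.44, 3.37 and 4.27 CPM under control mimic. Both passed under both mimics, with log2 differences of 1.62 ± 0.14 and 1.21 ± 0.14 for Lamc3 and 0.87 ± 0.17 and 0.91 ± 0.17 for Lama2. Lama5, an alpha chain of mature basement membranes, had 7.60, 5.54 and 7.12 against 5.01, 3.91 and 3.49 CPM under miR-27a and 9.11, 7.87 and 7.61 against 4.27, 5.86 and 4.94 CPM under control mimic, at 0.60 ± 0.14 and 0.62 ± 0.14. Lamc1, the most widely used gamma chain, was higher by a smaller margin, with 91.6, 77.1 and 90.7 against 68.5, 64.5 and 70.1 CPM under miR-27a and 88.3, 77.7 and 86.5 against 65.7, 67.9 and 67.4 CPM under control mimic. Its log2 differences were 0.34 ± 0.07 (adjusted p = 0.000499) and 0.32 ± 0.07 (adjusted p = 0.000858).

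Lama3 stood opposite to the other alpha chains. It had 5.19, 4.88 and 4.89 CPM in pulldown and 26.2, 33.7 and 29.1 CPM in whole-cell RNA under miR-27a, and 5.33, 5.79 and 6.76 CPM in pulldown and 21.5, 21.1 and 24.0 CPM in whole-cell RNA under control mimic. The log2 differences of -2.35 ± 0.11 (adjusted p = 6.30e-12) and -1.74 ± 0.11 (adjusted p = 3.41e-10) were the largest in size among the members under each mimic. Lamb2 was also lower in pulldown RNA, with 74.8, 48.5 and 69.5 against 106, 90.3 and 107 CPM under miR-27a and 72.9, 70.0 and 75.4 against 90.0, 99.4 and 93.0 CPM under control mimic. Its differences were -0.66 ± 0.11 (adjusted p = 5.47e-05) and -0.37 ± 0.11 (adjusted p = 0.00856), with no overlap under either mimic.

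Itgb8, Itgav and Itgb5, subunits that form alpha V receptors, were higher in pulldown RNA under both mimics. Itgb8 had 106, 122 and 109.9 CPM in pulldown against 60.5, 56.2 and 54.4 CPM in whole-cell RNA under miR-27a, and 125, 135 and 132 against 78.9, 75.0 and 73.1 CPM under control mimic, at 0.97 ± 0.07 (adjusted p = 1.14e-09) and 0.78 ± 0.07 (adjusted p = 1.75e-08). Its partner Itgav had 675, 629 and 599 against 481, 459.5 and 478 CPM and 789, 830.0 and 767 against 574, 569 and 595 CPM, at 0.42 ± 0.06 and 0.46 ± 0.06, and passed under both mimics. Itgb5 was higher by 0.30 ± 0.11 under miR-27a, where its replicate 2 in pulldown RNA overlapped the whole-cell libraries, and by 0.45 ± 0.11 under control mimic, where the groups did not overlap.

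Itga9, Itga3, Itga1, Itga5 and Itga4 were also higher in pulldown RNA under both mimics. Itga9 had 29.3, 27.6 and 28.0 CPM in pulldown against 15.6, 17.6 and 19.5 CPM in whole-cell RNA under miR-27a, and 18.0, 23.6 and 22.4 against 15.9, 17.8 and 14.3 CPM under control mimic, at 0.67 ± 0.11 and 0.39 ± 0.11. Itga3 had 4.91, 4.97 and 5.59 against 3.13, 2.25 and 2.03 CPM under miR-27a and 4.26, 3.86 and 4.46 against 1.91, 1.83 and 2.54 CPM under control mimic, at 0.84 ± 0.14 and 0.75 ± 0.14. Itga1 had 54.3, 55.9 and 54.6 CPM in pulldown RNA under miR-27a and 59.2, 69.4 and 59.1 CPM under control mimic, at 0.37 ± 0.07 and 0.36 ± 0.07 over the whole-cell levels given above. For these 3 genes all pulldown libraries were above the whole-cell libraries of the same mimic. Itga5, the fibronectin receptor subunit, and Itga4, a subunit that binds fibronectin and VCAM1, were lower in level, at 2.20 ± 0.071 and 2.64 ± 0.96 CPM in pulldown RNA under miR-27a (SD, n = 3 each), and passed too, Itga5 at 0.68 ± 0.14 and 0.84 ± 0.14 and Itga4 at 1.21 ± 0.20 and 0.55 ± 0.20. The Itga4 call under control mimic (adjusted p = 0.0259) and the Itgb5 call under miR-27a (adjusted p = 0.0289) were each lost in 6 of 20 alternatives.

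The abundant laminin receptor subunits differed less between pulldown and whole-cell RNA. Itgb1 had 1045, 1170.3 and 1059 CPM in pulldown and 958, 994 and 932 CPM in whole-cell RNA under miR-27a, and 1085, 1005 and 1015 CPM in pulldown and 1017, 983 and 997 CPM in whole-cell RNA under control mimic, with log2 differences of 0.18 ± 0.06 (adjusted p = 0.0152) and 0.05 ± 0.06 (adjusted p = 0.490). Its call under miR-27a was lost in 2 of 20 alternatives, the fit of that mimic's libraries alone and the fit without whole-cell miR-27a replicate 3, with adjusted p up to 0.0705. Itga6 gave 0.23 ± 0.05 (adjusted p = 0.000897) under miR-27a and 0.08 ± 0.05 (adjusted p = 0.179) under control mimic. Itga7 gave -0.10 ± 0.07 (adjusted p = 0.251) and 0.20 ± 0.07 (adjusted p = 0.0292), its small excess under control mimic being lost in 5 of 20 alternatives. Itgb7 was the integrin lower in pulldown RNA, with 5.53, 5.32 and 6.38 against 10.7, 10.4 and 9.40 CPM under miR-27a and 8.63, 6.56 and 9.78 against 8.48, 9.53 and 10.1 CPM under control mimic. Its differences were -0.73 ± 0.13 (adjusted p = 7.61e-05) and -0.16 ± 0.13 (adjusted p = 0.270). Itgb3 passed under miR-27a at 0.53 ± 0.16, with 7.89, 6.77 and 8.05 against 5.44, 3.67 and 5.91 CPM, and had 0.33 ± 0.16 (adjusted p = 0.0788) under control mimic. The Itgb3 call under miR-27a did not hold without replicate 2 of its whole-cell libraries, at an adjusted p of 0.0609. Itga2, a collagen receptor subunit, and Itga2b did not pass under either mimic with the main settings, with log2 differences of 0.07 ± 0.12 and 0.20 ± 0.12 for Itga2 and -0.12 ± 0.17 and 0.10 ± 0.17 for Itga2b. Some calls under control mimic depended on the scaling. With library totals Itgb1, Itga6 and Itga2 were called higher there, at adjusted p of 0.0438, 0.00706 and 0.0439. Itgb3 was called higher under control mimic in 3 of 20 alternatives, library totals among them.

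**Figure D4:**
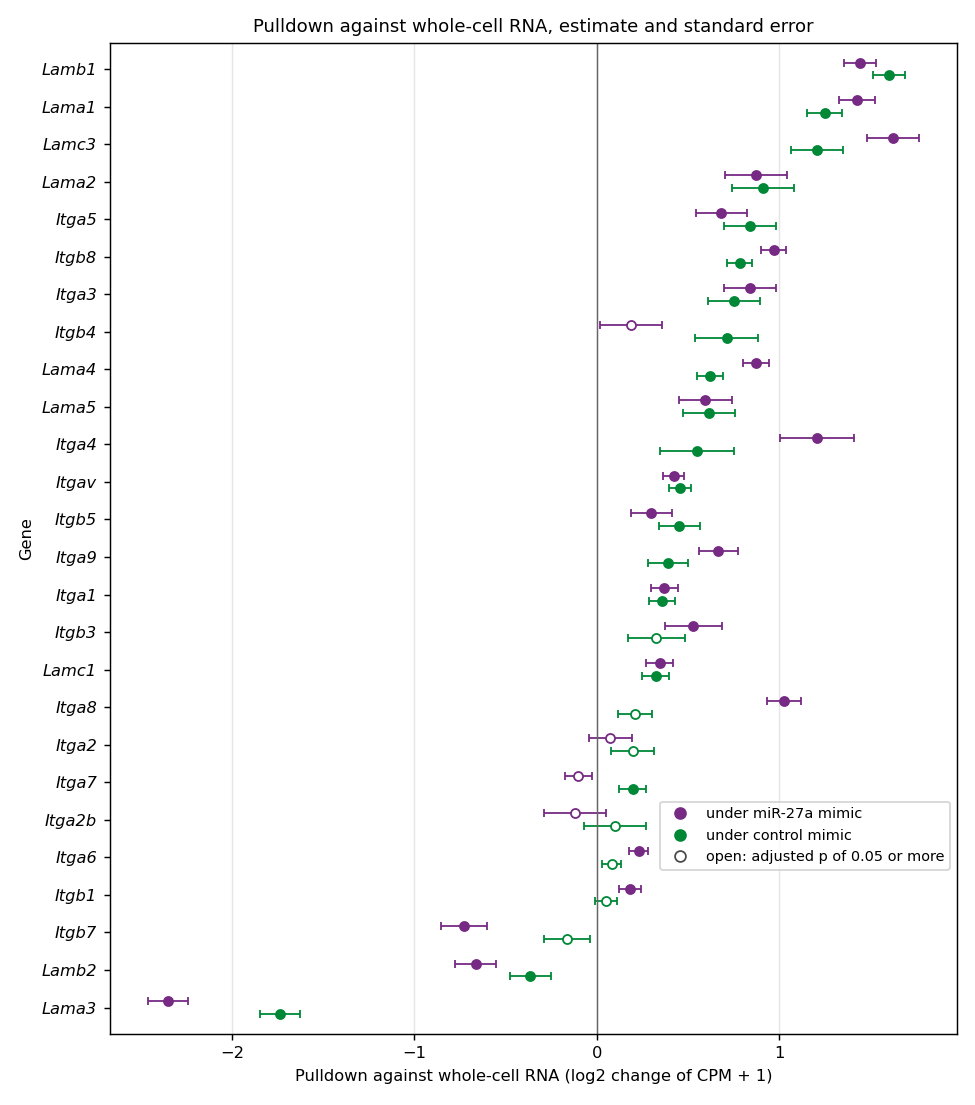
Log2 difference of CPM + 1 between pulldown and whole-cell RNA for 26 measured genes, under miR-27a (purple) and control mimic (green), from the fit of all 12 libraries. Bars are standard errors and open points did not pass an adjusted p of 0.05; Lamb1, Lama1 and Lamc3 lie above 1 and Lama3 below -1 under both mimics.

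Other features differed along with these groups. Markers of mural cells and fibroblasts, cell types that also make basement membrane, summed to 397 to 417 CPM in pulldown against 146.5 to 154 CPM in whole-cell RNA under miR-27a, and to 381 to 410 against 151 to 170.2 CPM under control mimic. Of the 11 markers, 10 and 7 were at 1 CPM or more under miR-27a, 9 and 7 under control mimic, and none was at 0 reads in a group. Of 10 tested, 8 were higher in pulldown RNA and 2 lower under miR-27a, and 7 higher and 2 lower under control mimic. All genes called were 60.2% (29.3% higher) and 62% (31.7% higher). Under both mimics the 2 lower markers were Acta2 and Rgs5, against the direction of the sum. Endothelial markers summed to 23.5 to 24.8 against 9.06 to 10.9 CPM under miR-27a and to 14.6 to 19.5 against 7.27 to 7.54 CPM under control mimic. Only 2 of these 7 markers were at 1 CPM or more in pulldown RNA and 1 in whole-cell RNA, under each mimic. Neuronal markers, 6 of 8 at 1 CPM or more, summed to 143 to 166 against 203 to 229 CPM under miR-27a and to 127 to 138 against 158 to 179 CPM under control mimic. By the sums given above, OPC markers were higher in pulldown RNA and oligodendrocyte and astrocyte markers lower. Of 8 astrocyte markers 5 were lower under each mimic, while Sox9 was higher under both and Slc1a2 under control mimic. The part of the markers of all these cell types in the pulldown results was not tested. The members were long genes, with a median of 8039 exonic bases against 4525.5 over the genes tested that had a length. As a description across genes, which share libraries, Spearman's rho between exonic length and the pulldown log2 difference was 0.36 under miR-27a and 0.28 under control mimic over the 27 members, and 0.083 and 0.034 over 13572 genes.

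Genes of proteins that work with integrins lay on both sides of the capture, with counts that are set beside the 60.2% and 62% of all genes called. Matrix ligands other than laminin were higher in pulldown RNA in 11 of 15 cases under each mimic and lower in none, with medians of 0.55 under miR-27a and 0.70 under control mimic. The bone and brain matrix protein osteopontin, Spp1, had 117 ± 9.8 against 24.0 ± 1.6 CPM under miR-27a and 74.4 ± 1.8 against 19.9 ± 1.0 CPM under control mimic (SD, n = 3 each), at 2.24 ± 0.08 and 1.85 ± 0.08. Fibronectin, Fn1, had 33.4 ± 8.0 against 8.44 ± 0.66 CPM and 39.8 ± 0.69 against 9.03 ± 0.43 CPM, at 1.84 ± 0.12 and 2.02 ± 0.12. Of 9 basement membrane partners, 8 were higher under each mimic and none lower, with medians of 1.03 and 0.96. They included the collagen IV chains Col4a1, at 1.14 ± 0.08 and 1.14 ± 0.08, and Col4a2, at 1.37 ± 0.11 and 1.46 ± 0.11, and nidogen 1, Nid1, which links laminin to collagen IV, at 1.28 ± 0.11 and 1.39 ± 0.11. All 5 tetraspanins and membrane regulators were higher under each mimic, among them Cd47 at 0.75 ± 0.08 and 0.63 ± 0.08 and the tetraspanin Cd9 at 0.66 ± 0.08 and 0.62 ± 0.08.

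Cytoplasmic adaptors of integrins lay on the other side. Of 23 tested, 3 were higher and 16 lower in pulldown RNA under miR-27a, and 3 higher and 14 lower under control mimic, with medians of -0.35 and -0.30. With library totals the counts were 5 and 12 under miR-27a, and 4 and 11 under control mimic. The same scaling gave 5009 and 3312 of 13880 genes under miR-27a, and 5176 and 3401 under control mimic. Talin 1, Tln1, which binds beta tails and activates integrins, had 71.0 ± 7.6 against 141 ± 4.3 CPM under miR-27a and 71.6 ± 4.9 against 132 ± 5.2 CPM under control mimic, at -0.98 ± 0.07 and -0.88 ± 0.07. Kindlin 2, Fermt2, a co-activator of integrins, was lower by 0.62 ± 0.05 and 0.63 ± 0.05 on the log2 scale, and Lims1, a scaffold bound to integrin-linked kinase, by 0.94 ± 0.07 and 0.89 ± 0.07. The kinase Src was among the few that were higher, at 0.69 ± 0.08 and 0.93 ± 0.08. These lists are described by their counts and medians and were not tested as sets.

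**Figure D5:**
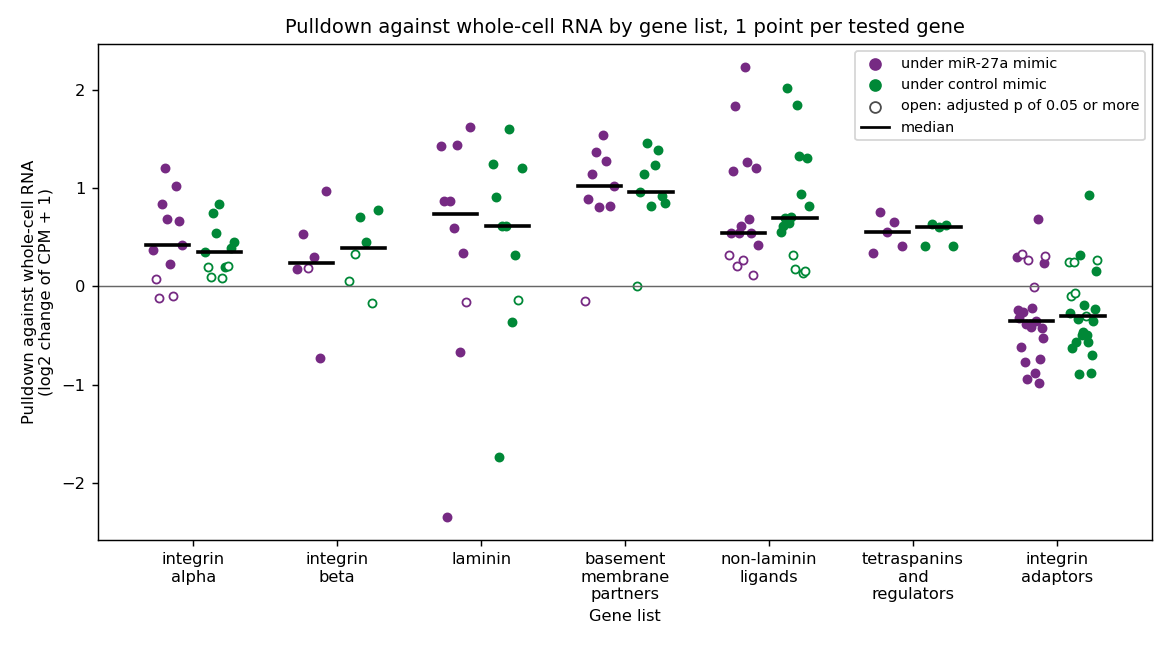
Log2 difference of CPM + 1 between pulldown and whole-cell RNA for each tested gene of the integrin, laminin and partner lists, under miR-27a (purple) and control mimic (green). Points are genes, black bars are medians and open points did not pass an adjusted p of 0.05; most secreted and membrane lists lie above 0 and the adaptors mostly below.

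Between the mimics, these lists are read beside the 24.9% of all tested genes called in whole-cell RNA and the 13.1% called in pulldown RNA. In pulldown RNA the replicate block called 2743 of 13586 genes, and the fit without pulldown miR-27a replicate 2 called 2691 of 13486. Library totals called 3419 of 13315 genes in whole-cell RNA. In whole-cell RNA, 2 of 21 adaptors were higher and 5 lower under miR-27a, and in pulldown RNA none of 22 was higher and 2 were lower. With the replicate block 1 was higher and 7 lower in pulldown RNA, and without pulldown miR-27a replicate 2 these counts were 1 and 4. Vinculin, Vcl, which links talin to actin, was lower in both, at -0.27 ± 0.08 (adjusted p = 0.0323) in pulldown and -0.36 ± 0.04 (adjusted p = 1.88e-06) in whole-cell RNA. Of the other adaptors that changed in whole-cell RNA, Lims2 rose by 0.49 ± 0.08, and Parvb, a parvin, and Fermt2 fell by 0.35 ± 0.07 and 0.20 ± 0.03 on the log2 scale. Non-laminin ligands held 3 higher and 3 lower of 14 in whole-cell RNA and 3 higher and 2 lower of 15 in pulldown RNA. Tenascin C, Tnc, a ligand of alpha 8, alpha 9 and alpha V receptors, had 695 ± 68.2 against 239 ± 6.1 CPM in pulldown RNA and 474 ± 5.1 against 218 ± 7.0 CPM in whole-cell RNA (SD, n = 3 each), at 1.53 ± 0.09 (adjusted p = 7.07e-08) and 1.12 ± 0.03 (adjusted p = 1.36e-16). Spp1 rose too, by 0.64 ± 0.09 in pulldown and 0.25 ± 0.07 in whole-cell RNA, while thrombospondin 2, Thbs2, fell by 0.72 ± 0.14 and 0.46 ± 0.11. Of 9 basement membrane partners 2, Nid1 at 0.26 ± 0.09 (adjusted p = 0.0410) and the laminin receptor dystroglycan, Dag1, at 0.18 ± 0.06 (adjusted p = 0.0435), rose in whole-cell RNA (4 with library totals), and none passed in pulldown RNA (3 rose without pulldown miR-27a replicate 2). Of 5 tetraspanins and regulators, Cd9 and Cd81 rose and Slc3a2 fell in whole-cell RNA, at 0.17 ± 0.03, 0.14 ± 0.03 and -0.25 ± 0.04, and none passed in pulldown RNA (1 rose and 1 fell with the replicate block). Tnc was the one gene of these lists whose change differed between pulldown and whole-cell RNA, by 0.41 ± 0.09 (adjusted p = 0.0337), a call that was lost without pulldown miR-27a replicate 3 and without any one of the whole-cell or pulldown control libraries.

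Seed matches can be set beside these changes, and beside the 24.9% of all tested genes called in whole-cell RNA (11.9% lower) and the 13.1% in pulldown RNA (7.06% lower). Of the 5 tested members with an 8mer or 7mer in the longest 3′ UTR, Itgb8 and Itga1 were lower and none higher under miR-27a in whole-cell RNA, with a median log2 change of -0.20. Of the 20 tested without one, 5 were higher and 3 lower, with a median of 0.08. In pulldown RNA 0 of 6 members with a match were called in either direction, with a median of -0.20, and of 21 without one 4 were higher and 2 lower, with a median of 0.08. Itga2 and Itga5, both with an 8mer, had 11.2 ± 1.6 and 0.993 ± 0.096 CPM in whole-cell RNA under miR-27a and 12.5 ± 1.8 and 1.28 ± 0.11 CPM under control mimic (SD, n = 3 each), and changes of -0.15 ± 0.11 (adjusted p = 0.344) and -0.20 ± 0.15 (adjusted p = 0.376). Itga4, with an 8mer, was left out by the filter on low values in whole-cell RNA, at 0.541 ± 0.14 CPM under miR-27a and 1.12 ± 0.26 CPM under control mimic. With no such filter, Itga4 and the 7mer gene Itga11 were also called lower under miR-27a in whole-cell RNA. Itga11 is among the genes treated as not measured, at 0.167 ± 0.093 and 0.614 ± 0.25 CPM (9 and 29 reads summed). In that fit 4 of 8 members with a match were lower and 0 higher, and over all 32 members 7 were lower and 4 higher. It called 1320 of 19780 genes lower and 1337 higher. In pulldown RNA with no filter 0 of 8 were called in either direction, beside 1246 of 19772 genes. Lamc1, with a 7mer, differed by 0.01 ± 0.05 (adjusted p = 0.864) in whole-cell RNA. Between pulldown and whole-cell RNA, 5 of the 6 members with a match were higher under miR-27a and the same number under control mimic, a mimic of unstated sequence, beside 60.2% and 62% of all tested genes called in either direction (29.3% and 31.7% higher). When any annotated 3′ UTR of a gene was searched, 2 of 7 tested members with a match were lower in whole-cell RNA and 0 higher, and 1 of 8, Itga9, was higher in pulldown RNA and 0 lower.

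The remaining members were low. Itgb4, a subunit of epithelial laminin receptors, had 1.03 ± 0.29, 1.47 ± 0.29, 0.783 ± 0.19 and 0.513 ± 0.25 CPM in pulldown RNA under miR-27a and control mimic and in whole-cell RNA under miR-27a and control mimic (SD, n = 3 each). It was tested only where pulldown libraries entered the fit, and passed in pulldown against whole-cell RNA under control mimic at 0.71 ± 0.17 (adjusted p = 0.00147). Of the 5 genes below 1 CPM, the collagen receptor subunits Itga10 and Itga11 reached group means of at most 0.993 and 0.930 CPM, the leukocyte subunit Itgb2 0.347 CPM and the laminin chain Lamb3 0.484 CPM. The epithelial subunit Itgb6 had 5, 0, 2 and 2 reads summed over the libraries of the same 4 groups; its 0 reads in pulldown RNA under control mimic allow up to 0.180 CPM in a library. The leukocyte alpha subunits Itgad, Itgae, Itgal, Itgam and Itgax are outside the numbered symbols and are not among the 32. Of them only Itgam was high enough to test, at 2.19 ± 0.30, 2.83 ± 0.48, 3.06 ± 0.21 and 3.15 ± 0.30 CPM in the same 4 groups, and it was lower in pulldown than in whole-cell RNA under miR-27a, at -0.35 ± 0.14 (adjusted p = 0.0346). The summed microglial markers came to between 17.8 and 29.7 CPM over all libraries.

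Some of the genes share exonic bases with a neighbour, and no strand setting for the counting was found in the labels or notes, so reads of such pairs may not be told apart. Besides Itga8, these were Itga4 with Cerkl (1124 bases), Itga7 with Mettl7b (9 bases) and Itgb4 with B230344G16Rik (537 bases), whose partners were at or below 0.420 CPM in every library. Itga1, Itga10, Itgav, Lama2, Lama3 and Lamc3 overlap annotated genes that were not analysed here.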

How the data were processed

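RNA from 12 libraries was measured by sequencing after ribosomal depletion and stranded library preparation, as the series' design text states. Per the same text, the authors trimmed reads with skewer, aligned them to GRCm38 with HISAT2, counted them per gene with featureCounts and normalised them with edgeR, and they deposited log2 CPM values with no tool versions; the submitters' processing notes also name mm8. Genome annotation used here was GRCm38 throughout. The lowest deposited log2 value in each library corresponded to 0.25 added reads, and removing it gave whole reads for 100% of values within 0.01 of a read, so assigned reads per library (15548418 to 24972188) were recovered.

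CPM was tested as log2(CPM + 1) with limma 3.58.1 (trended variance, R 4.3.3) for genes that reached 1 CPM in 3 or more libraries of the fit, with Benjamini-Hochberg adjustment over all genes tested and a threshold of 0.05. Each comparison of mimics used its 6 libraries, and pulldown against whole-cell RNA and the difference between them used all 12. Same-numbered pulldown libraries correlated in their deviations from the group means at r = 0.135, 0.275 and 0.107 between the mimics, so the replicate number was also fitted as a block, and the blocked values stand beside the pulldown results they change. That pairing comes from the data, since the labels give shared numbers only. Differently numbered pulldown libraries of the mimics correlated at r = -0.198 to 0.062. Between other groups, differently numbered libraries reached r = 0.222 (pulldown miR-27a replicate 2 with whole-cell control replicate 1), so the pairing is not established. The fit was first tested on simulated data, with the same relative spread for every gene. Of 100 changes of 0.5 on the log2 scale, 72 to 82 were recovered between mimics and between pulldown and whole-cell RNA. For the difference between those contrasts 48 of 100 were recovered, and 89 of 100 changes of 1. A member that did not pass that test may still differ.

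Genes were chosen by symbol. The members and the lists of partners and markers were chosen with earlier results of these data known. Values of 1 laminin gene are not reported here, although it enters the counts and medians. The other members are accounted for by name, with values per library for those called in any comparison whose highest group mean reached 5 CPM, or 100 CPM where not called, and up to 4 genes of each other list by smallest p in a comparison. Alternatives were another pseudocount, the values as deposited, no filter, library totals, median-of-ratios scaling, voom on the recovered reads, other sets of libraries in the fit, the block and leaving out each library. Seed matches and exonic lengths came from GENCODE M21, in which 19691 of the 20540 genes and all 32 members were found. Python 3.11.15, pandas 2.3.3, numpy 2.4.6, scipy 1.17.1 and matplotlib 3.10.9 were used.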

Additional observations from a re-analysis of the deposited data

Results flagged for a closer look

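Itga8 was singled out because its change under miR-27a differed between pulldown and whole-cell RNA, by 0.82 on the log2 scale: it was higher under miR-27a in pulldown RNA and lower under miR-27a in whole-cell RNA. The difference was tested as an interaction in limma over all 12 libraries (adjusted p = 0.00417), and each of the 3 libraries of one mimic lay on one side of the 3 of the other in both kinds of RNA. OPC, oligodendrocyte and astrocyte marker sums also differed between pulldown and whole-cell RNA. So did mural and fibroblast marker sums, at 397 to 417 CPM in pulldown and 146.5 to 154 CPM in whole-cell RNA under miR-27a and 381 to 410 CPM in pulldown and 151 to 170.2 CPM in whole-cell RNA under control mimic. Acta2 and Rgs5 of that list went the other way, being lower in pulldown RNA under both mimics. Endothelial sums were 23.5 to 24.8 CPM in pulldown and 9.06 to 10.9 CPM in whole-cell RNA under miR-27a, and 14.6 to 19.5 CPM in pulldown and 7.27 to 7.54 CPM in whole-cell RNA under control mimic. Those sums rested on few genes, with 2 of 7 markers at 1 CPM or more in pulldown and 1 in whole-cell RNA. Between the mimics, astrocyte sums were 3634 to 4013 CPM under miR-27a and 5122 to 5289 CPM under control mimic in pulldown RNA, and 6408 to 6441 CPM under miR-27a and 7793 to 7810 CPM under control mimic in whole-cell RNA. In the same interaction test 2 of 6 oligodendrocyte markers, Mag and Mbp, and 1 of 8 astrocyte markers, Gfap, were lower and none higher. Over all 13875 genes 0.735% were lower and 0.339% higher. The part of these markers in the Itga8 result was not tested.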

How the results depend on the processing

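Of 2320 values of single members under alternatives, 2247 kept their side of the threshold, 43 were no longer called and 30 became called. Direction was compared only for values called in the main fit or the alternative, and 0 of those reversed. Some values called in neither changed sign, such as the Itgb3 change between mimics in whole-cell RNA, at -0.21 to 0.07. Under the fit of all 12 libraries 1415 genes were called between mimics in whole-cell RNA and 3051 in pulldown RNA, against 3335 and 1781 with the 6 libraries of each. With the replicate block, where pulldown libraries were paired by number, 2743 genes and 10 members were called between mimics in pulldown RNA. The block gave 3104 genes and 10 members in whole-cell RNA, 8415 and 22 in pulldown against whole-cell RNA under miR-27a, 8637 and 20 under control mimic, and 170 and 1 for the difference. Same-numbered pulldown and whole-cell libraries correlated at r = 0.015, 0.161 and 0.132 under miR-27a and at -0.055, -0.097 and 0.012 under control mimic. Whole-cell libraries of the 2 mimics correlated at 0.001, -0.028 and -0.034. With no filter the difference was called for 73 genes in place of 149. Library totals gave 5009 genes higher and 3312 lower in pulldown than in whole-cell RNA under miR-27a, against 4064 and 4286, and 5176 and 3401 under control mimic, against 4392 and 4209. Median-of-ratios scaling gave 53 higher and 72 lower for the difference, against 47 and 102. By longest transcript Itgb1 had 262 CPM per kilobase in whole-cell RNA under control mimic, against 245 by merged exons, and Itga6 had 41.3, against 19.7.

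Leaving out each replicate gave 2379 to 3294 genes and 8 to 11 members between mimics in whole-cell RNA, and 969 to 2691 genes and 3 to 12 members in pulldown RNA. The 2691 genes and 12 members came without pulldown miR-27a replicate 2; 1029, 1002, 1180 and 969 genes were called without miR-27a replicate 3 and without control replicates 1, 2 and 3. It gave 7429 to 8441 genes and 20 to 22 members in pulldown against whole-cell RNA under miR-27a, 7777 to 9147 genes and 17 to 20 members under control mimic, and 43 to 473 genes and 1 to 2 members for the difference. The highest, 473 and 359 genes, came without pulldown miR-27a replicates 2 and 1. The causes were not tested. Members below 1 CPM were left out by the filter; 3 reads were worth 0.116 to 0.200 CPM.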
